A study of Mus musculus with 28 samples.

Results

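The Bcl2 family and the death receptor Fas set whether a lymphocyte lives or dies, and 10 of their genes were followed here in CD4+ T cells of the mouse small intestinal lamina propria. They were taken by name from the deposited expression table: Bcl2, Bcl2l1, Mcl1, Bcl2l11, Bax, Bak1, Bbc3, Pmaip1, Bid and Fas, each found as 1 row among 25124. All 10 passed the filter on low values that left 12182 genes for testing. Lymphocytes gated as live, CD45+, CD90.2+, TCRb+ and CD4+ had been sorted from T-bet-ZsGreen mice, a genotype that reports the T cell factor T-bet by fluorescence and that all 4 groups carry. Specific-pathogen-free (SPF) mice carry a gut flora and germ-free (GF) mice have none, and each kind received either aCD3, an antibody to the CD3 signalling chains of the T cell receptor, or an isotype control. The groups were SPF isotype (n = 6), SPF aCD3 (n = 6), GF isotype (n = 10) and GF aCD3 (n = 6). Both SPF groups held 3 females and 3 males, GF isotype 5 and 5, and GF aCD3 1 female and 5 males. The age of the mice, the dose and the time from injection to sampling are not given in the sources used here, nor is it stated whether each library came from 1 mouse.

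In the mitochondrial pathway of apoptosis, the guardians BCL-2, BCL-XL (from Bcl2l1) and MCL-1 hold back the pore-forming effectors BAX and BAK. The BH3-only proteins BIM (from Bcl2l11), PUMA (from Bbc3), NOXA (from Pmaip1) and BID occupy the guardians or activate the effectors, and NOXA binds chiefly MCL-1. FAS is the death receptor whose ligand starts a second route through caspase-8, joined to the mitochondrial route by cleaved BID. In T cells, BIM against BCL-2 is the balance best known for the death of activated cells after an antigen response, and Fas is known for the death of cells that are stimulated again.

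Bcl2 and Bbc3 are the members called lower after aCD3 (limma adjusted p under 0.05) in both SPF and GF mice. Bax is one whose deposited level was close between aCD3 and isotype, so the bases before the starts of these genes are shown. The windows hold the 250 bases before each start, from RefSeq on GRCm38.p6, written 5′ to 3′ along the gene's strand. Capitals mark GGGCGG (the GC box) or its reverse CCGCCC, and TGACG (the CRE core) or its reverse CGTCA. The Bcl2 window lies at chr1:106714291-106714540 on the minus strand, the Bbc3 window at chr7:16309333-16309582 on the plus strand and the Bax window at chr7:45466899-45467148 on the minus strand. None of the 3 overlaps an exon in the GENCODE annotation. The whole Bbc3 window (250 bases) and the last 5 bases of the Bax window lie inside the RefSeq gene span, so the Bbc3 window precedes the start of the counted row and not that of the gene.
Bcl2: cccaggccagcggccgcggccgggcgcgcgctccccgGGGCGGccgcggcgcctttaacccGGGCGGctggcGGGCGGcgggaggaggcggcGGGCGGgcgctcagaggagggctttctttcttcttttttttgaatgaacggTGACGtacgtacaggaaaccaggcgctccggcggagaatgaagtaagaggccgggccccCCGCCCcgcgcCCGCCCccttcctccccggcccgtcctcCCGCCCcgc
Bbc3: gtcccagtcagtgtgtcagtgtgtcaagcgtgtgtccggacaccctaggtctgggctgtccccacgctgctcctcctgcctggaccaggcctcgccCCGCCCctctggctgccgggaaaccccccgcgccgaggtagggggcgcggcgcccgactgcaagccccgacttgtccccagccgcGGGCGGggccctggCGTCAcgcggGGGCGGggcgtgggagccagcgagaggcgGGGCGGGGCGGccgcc
Bax: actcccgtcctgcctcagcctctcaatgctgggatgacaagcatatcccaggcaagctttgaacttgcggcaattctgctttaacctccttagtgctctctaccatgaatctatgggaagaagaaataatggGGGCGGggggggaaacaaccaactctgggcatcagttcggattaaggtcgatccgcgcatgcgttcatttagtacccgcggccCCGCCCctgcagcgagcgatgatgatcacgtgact

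The Bcl2 window was 74.8% G or C with 7 GC boxes and 1 CRE core. The Bbc3 window was 76.4% G or C with 5 GC boxes, the last 2 of which overlap, and 1 CRE core. The Bax window was 54% G or C with 2 GC boxes and no CRE core, close in base content to the median of 52.4% over all windows. Base content did not sort the members by call: the Bcl2l11 window, of a gene called in neither SPF nor GF mice, was 73.2% G or C with 2 GC boxes, and the Mcl1 window was 64.4% with 1. Of 32851 windows of this length, 32.7% held a GC box and 17.8% a CRE core on either strand. Neither CCAAT (33.8% of windows) nor GTAAACA, the forkhead site of the Foxo factors (3.17%), was found in the Bcl2, Bbc3 or Bax window. A match is a run of letters, not a shown binding site.

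Read totals in genes, recovered from the table, ran from 6765529 to 17860611 per library. The 6 markers of the sort gate summed to between 1490 and 2022 TPM (transcript abundance per length, as a share of the library) in the 28 libraries, with Cd4 between 165.8 and 244.2 TPM in SPF libraries. Single gate markers moved between SPF isotype and SPF aCD3. Ptprc (109.6 to 157.7 against 65.8 to 98.8 TPM) and Thy1 (510.1 to 736.8 against 385.4 to 488.5 TPM) were lower after aCD3 without overlap. Cd3d was higher without overlap (138.8 to 177.7 against 199.7 to 224.0 TPM). For Cd3e, Cd3g and Cd4 the ranges overlapped. Histone genes took 4.05 to 7.04% of TPM in SPF isotype and 23.78 to 26.84% in SPF aCD3. TPM is a share of the library, though the deposited rows alone summed to between 679994 and 786003, and the median tested gene changed by -0.35 on the log2 scale in SPF aCD3. Main changes are therefore also given after scaling by median of ratios. In GF aCD3, 3 of the 6 libraries (F1, M3 and M4) held Lag3, an inhibitory receptor gene at 505.0 to 824.9 TPM in SPF aCD3 and 9.50 to 18.5 TPM in SPF isotype, at 9.59, 17.0 and 12.3 TPM, within the 5.41 to 18.5 TPM of GF isotype. Lag3 was between 452.0 and 527.0 TPM in the other 3. Histone genes took 5.39% of TPM in F1, 7.46% in M3 and 6.43% in M4, within the 3.79 to 9.24% of GF isotype, and 23.05 to 25.97% in the other 3. Whether F1, M3 and M4 match their aCD3 label was not tested, and each GF aCD3 mean and interaction takes the label as given. The GF aCD3 values that results turn on are therefore given with and without these libraries. Those libraries were singled out by a measured response, so the values without them describe the remaining 3 and are not a test.

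Each row covers a fixed stretch of mm10 that the authors counted. The Bcl2 row (NM_177410, chromosome 1, 106712165 to 106714290, minus strand) spans 1.21% of the RefSeq gene, the first part of it, and the Bcl2l11 row (NM_001284410, chromosome 2, 128127575 to 128131498) 10.7%. Their values therefore describe the first part of each gene and not its distal exons. The Bak1 row (NM_007523, chromosome 17, 27019812 to 27028627, minus strand) lies wholly inside the row of Ggnbp1 on the plus strand (27018035 to 27036377). Bak1 held between 96.3 and 100.0% as many reads as Ggnbp1 in every library, so reads of the pair cannot be told apart and Bak1 values are uncertain. TPM was divided by the genomic span with introns, so levels are compared between groups and not between genes.

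**Figure D1:**
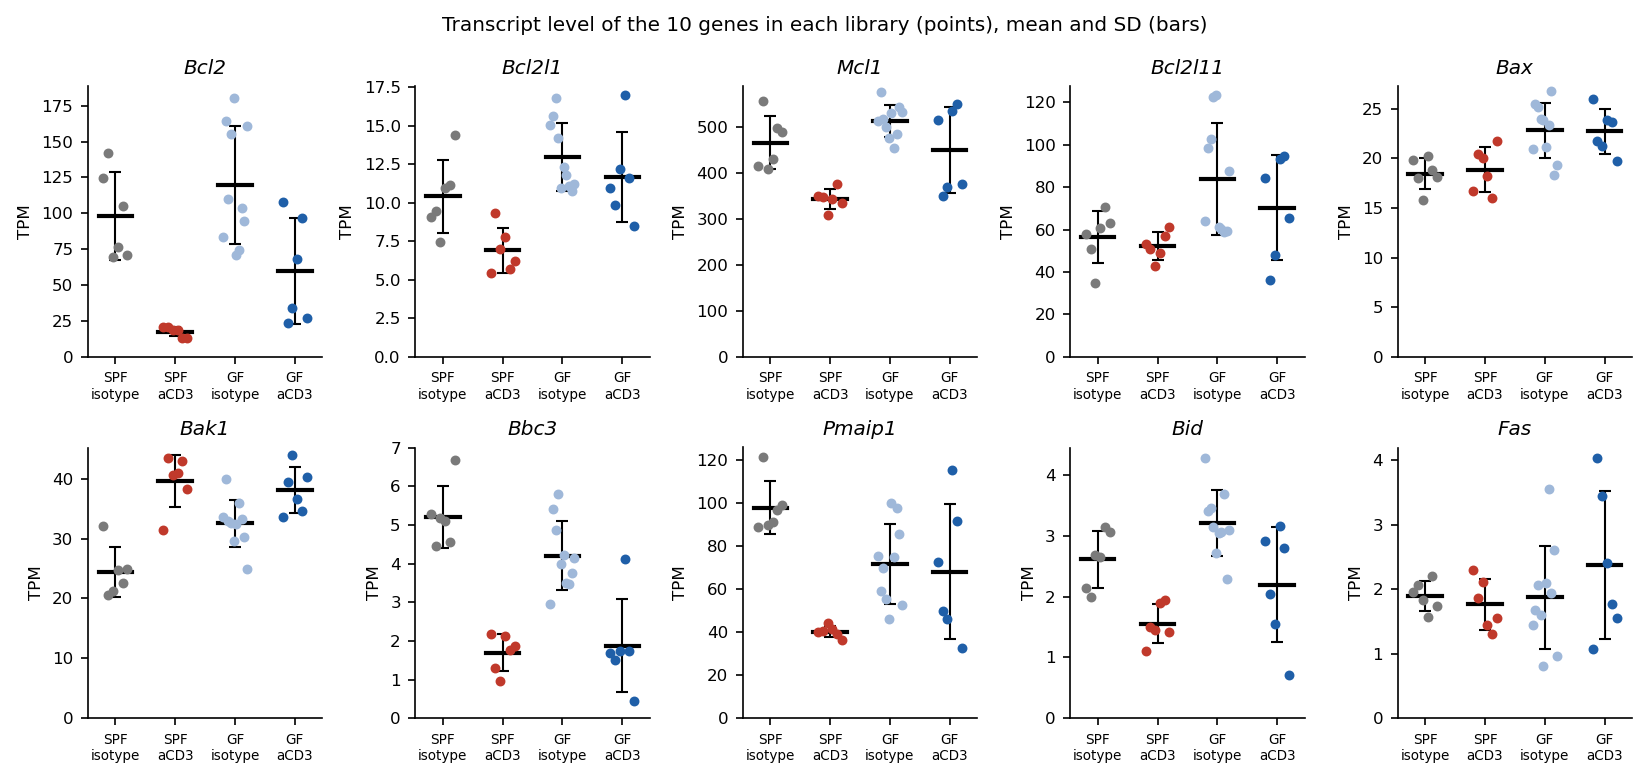
Transcript level (TPM, linear axes from 0) of the 10 genes in each of the 28 libraries, as points by group, with the group mean as a bar and the SD as whiskers. Bcl2 was at most 20.7 TPM in SPF aCD3 and at least 69.3 TPM in SPF isotype, while the 6 GF aCD3 libraries spread from 23.5 to 107.9 TPM.

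In SPF mice, aCD3 was followed by a large loss of Bcl2 transcript and by lower Bbc3 and Pmaip1, while Bak1 was higher. By limma over all tested genes, 7 of the 10 members passed an adjusted p of 0.05, 1 higher and 6 lower. That share reads against a background of 64.8% of all 12182 tested genes called in this comparison, 14.2% higher and 50.7% lower, so being called sets no member apart. The count was 7 when any single library was left out. After scaling by median of ratios 5 were called, 2 higher and 3 lower, beside 60% of all genes (3679 higher and 3628 lower), and with voom on the recovered reads 5 were called beside 58.8%.

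Among the guardians, Bcl2 moved most. In SPF isotype it ran from 69.3 to 142.1 TPM (median 90.8) and in SPF aCD3 from 13.2 to 20.7 TPM (median 18.7), with no overlap. The means were 98.1 ± 30.7 TPM (SD, n = 6) and 17.6 ± 3.41 TPM (n = 6), on 278 to 458 and 45 to 93 reads. On the log2(TPM + 1) scale the change was -2.38 (SE 0.29, limma adjusted p = 1.37e-06), and after median-of-ratios scaling it was -1.98. In bulk RNA, fewer cells that carry a transcript and less of it per cell cannot be told apart.

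Bcl2l1 and Mcl1 differed less. Bcl2l1 went from a median of 10.2 TPM (7.43 to 14.4) to 6.59 TPM (5.46 to 9.33), and the groups overlapped. Its log2 change was -0.52 (SE 0.15, limma adjusted p = 0.00474). Mcl1, the short-lived guardian, ran from 409.1 to 555.5 TPM (median 459.0) in SPF isotype and from 307.6 to 374.8 TPM (median 345.1) in SPF aCD3, without overlap. The Mcl1 change was -0.44 (SE 0.11, limma adjusted p = 0.000976). Both calls rested on the scaling: under median of ratios Bcl2l1 changed by -0.15 (adjusted p = 0.297) and Mcl1 by -0.02 (adjusted p = 0.827).

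The effectors did not follow Bcl2. Bax ran from 15.8 to 20.2 TPM (median 18.5) in SPF isotype and from 16.0 to 21.8 TPM (median 19.1) in SPF aCD3, almost the same range. Its log2 difference was 0.03 (SE 0.09, limma adjusted p = 0.823), but after median-of-ratios scaling Bax was higher by 0.42 (adjusted p = 0.000183). Bak1 ran from 20.6 to 32.1 TPM (median 23.7) in SPF isotype and from 31.5 to 43.4 TPM (median 40.7) in SPF aCD3. A single isotype library, F1 at 32.1 TPM, reached into the aCD3 range. Bak1 reads, shared with Ggnbp1, were higher by 0.68 (SE 0.11, limma adjusted p = 1.21e-05), and by 1.09 after scaling.

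The BH3-only genes split into 3 that fell and 1 that did not pass the test. Bbc3, a p53 and Foxo target that codes for PUMA, ran from 4.46 to 6.69 TPM (median 5.14) in SPF isotype and from 0.976 to 2.18 TPM (median 1.81) in SPF aCD3, without overlap. This rested on 56 to 108 and 20 to 34 reads. The change was -1.21 (SE 0.19, limma adjusted p = 1.59e-05), or -0.94 after scaling. Pmaip1, which codes for NOXA, ran from 88.8 to 121.2 TPM (median 93.6) and from 36.2 to 44.1 TPM (median 40.1), also without overlap. It fell by 1.25 (SE 0.22, limma adjusted p = 3.9e-05) and by 0.85 after scaling.

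Bid, the link from death receptors to mitochondria, was low, at 2.00 to 3.14 TPM (median 2.67) in SPF isotype and 1.11 to 1.95 TPM (median 1.48) in SPF aCD3. The groups just missed each other, with a change of -0.50 (SE 0.16, limma adjusted p = 0.00996) that was no longer called after scaling (-0.23, adjusted p = 0.168). Bcl2l11, which codes for BIM, ran from 35.0 to 70.5 TPM (median 59.3) and from 42.8 to 61.4 TPM (median 52.01), so the aCD3 libraries lay inside the isotype range. Its difference was -0.08 (SE 0.23, limma adjusted p = 0.770) and 0.33 after scaling (adjusted p = 0.145). Fas was close to 2 TPM in both SPF groups, from 1.56 to 2.21 TPM (median 1.90) in SPF isotype and from 1.31 to 2.29 TPM (median 1.71) in SPF aCD3. The Fas difference was -0.08 (SE 0.20, limma adjusted p = 0.746).

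Markers of other cells moved with aCD3 as well. The 6 B and plasma cell markers summed to 95.7 to 271.6 TPM in SPF isotype and 2.51 to 8.77 TPM in SPF aCD3, nearly all of it Jchain in SPF isotype. The 5 stromal markers summed to 3.67 to 31.8 and 0.137 to 0.579 TPM, with Col1a2 at 0 in every SPF aCD3 library. The 5 erythroid markers summed to 2.29 to 10.2 and 0.716 to 1.28 TPM, with 4 haemoglobin genes at 0 in every SPF aCD3 library. The 6 myeloid markers summed to 0.632 to 11.2 and 57.5 to 106.1 TPM. Nearly all of the higher sum was Cd68 (54.4 to 105.8 TPM after aCD3), while Csf1r was at most 0.161 TPM and Adgre1 at most 0.010 TPM. The 2 CD8 T cell markers summed to 5.68 to 13.5 TPM in SPF isotype and 9.75 to 23.8 TPM in SPF aCD3, and the 6 epithelial markers to 5.55 to 21.4 and 4.87 to 11.9 TPM. The part of these cells in the members' changes was not tested.

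**Figure D2:**
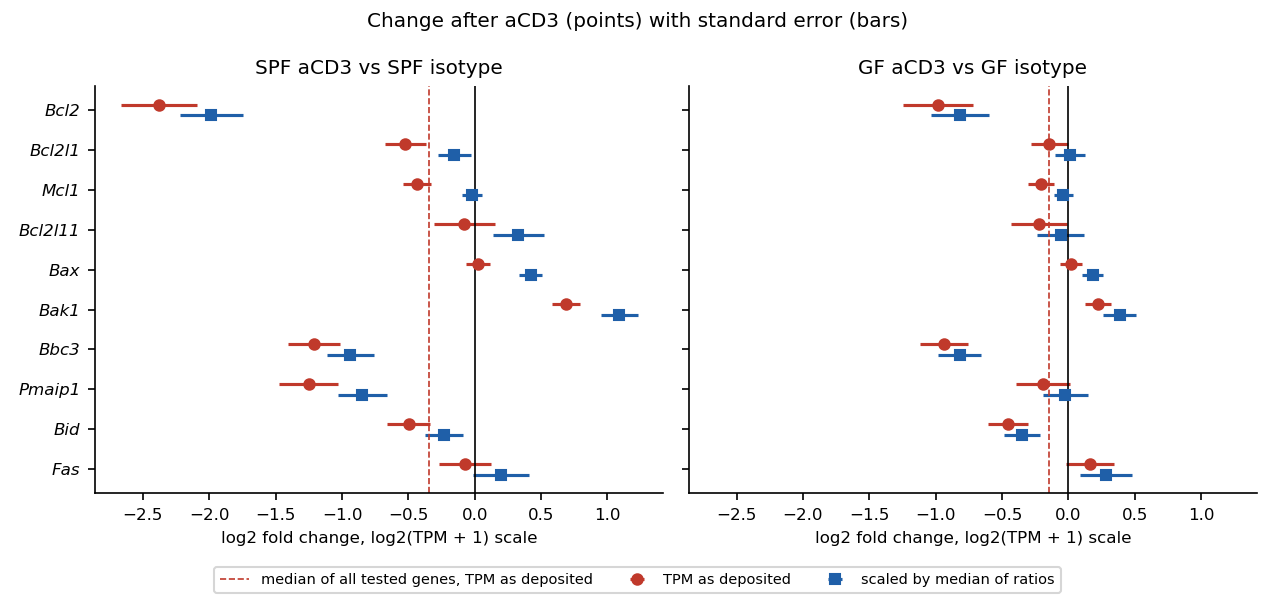
Difference between aCD3 and isotype on the log2(TPM + 1) scale with its standard error for each of the 10 genes, in SPF mice on the left and GF mice on the right, as deposited (circles) and after median-of-ratios scaling (squares); the dashed line is the median of all tested genes as deposited. As deposited, Bcl2 lay lowest in SPF at -2.38 and in GF at -0.98, and Bak1 lay highest in SPF at 0.68. After scaling, Bbc3 and Bcl2 both lay at -0.82 in GF.

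In GF mice Bcl2 and Bbc3 were lower after aCD3 and the other 8 members did not pass the test, so 2 of 10 were called beside a background of 7.08% of all genes (2.46% higher and 4.61% lower). Both sat at the edge of the threshold, as did every gene called here: the smallest limma adjusted p of any tested gene was 0.0481. The unadjusted limma p was 0.000994 for Bcl2 and 1.89e-05 for Bbc3. Leaving out any one of 25 libraries, all but GF aCD3 F1, M3 and M4, ended both calls. Without F1 there were 3 calls, and without M3 or M4 there were 4.

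Bcl2 in GF isotype ran from 71.1 to 180.3 TPM (median 106.9), and in GF aCD3 it was 107.9 TPM in F1, 23.5 in M1, 34.0 in M2, 68.4 in M3, 96.7 in M4 and 27.3 in M5. The low ones, M1, M2 and M5, are the libraries with high Lag3, and F1 and M4 lay within the isotype range. The means were 119.8 ± 41.3 TPM (SD, n = 10) and 59.7 ± 36.9 TPM (n = 6), a log2 change of -0.98 (SE 0.26, limma adjusted p = 0.0481), and -0.82 after median-of-ratios scaling (adjusted p = 0.0399). Without F1, M3 and M4 the difference was -1.77. The column headers number the GF libraries in 2 runs, and within them Bcl2 differed by -1.33 (3 aCD3 against 6 isotype) and -1.11 (3 against 4).

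Bbc3 ran from 2.96 to 5.79 TPM (median 4.06) in GF isotype, and in GF aCD3 it was 1.68 TPM in F1, 1.51 in M1, 1.74 in M2, 4.13 in M3, 1.74 in M4 and 0.458 in M5. All but M3 lay below the whole isotype range, F1 and M4 with isotype-like Lag3 among them. The M5 value rests on 6 reads. The log2 change was -0.94 (SE 0.18, limma adjusted p = 0.0481), and -0.82 after scaling (adjusted p = 0.0399). It was -1.26 without F1, M3 and M4, and -0.61 and -1.28 within the 2 runs of numbers.

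The other 8 members were not called in GF mice. Pmaip1 was 72.7 TPM in F1, 49.6 in M1, 45.8 in M2, 115.1 in M3, 91.7 in M4 and 32.7 in M5, against 45.9 to 100.0 TPM in GF isotype (median 72.5), a difference of -0.19 (SE 0.20, limma adjusted p = 0.511). Mcl1 was between 515.1 and 550.1 TPM in F1, M3 and M4 and between 350.1 and 374.8 TPM in M1, M2 and M5, beside 454.5 to 575.0 TPM in GF isotype. Its difference was -0.21 (SE 0.10, limma adjusted p = 0.131), and -0.50 without F1, M3 and M4. After median-of-ratios scaling the 2 sets of Mcl1 values overlapped (432.5 to 474.3 and 393.9 to 452.8 TPM) and the difference was -0.04 (adjusted p = 0.734). Bid differed by -0.46 (SE 0.15, limma adjusted p = 0.0557) and Bak1 by 0.22 (SE 0.10, limma adjusted p = 0.110). Bcl2l1 (-0.14), Bcl2l11 (-0.22), Bax (0.02) and Fas (0.17) had adjusted p between 0.451 and 0.874 by limma. Fas spread widely in GF aCD3, from 1.07 TPM in F1 to 4.03 TPM in M1. Without F1, M3 and M4 the log2 differences were -0.30 for Bcl2l1, -0.67 for Bcl2l11, -0.78 for Pmaip1 and -0.86 for Bid. They were -0.09 for Bax, 0.35 for Bak1 and 0.45 for Fas.

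Marker sums of other cells differed in GF too. Between GF isotype and GF aCD3 the median sum of the 6 pancreatic acinar markers went from 2.03 TPM (0.761 to 59.7) to 20.4 TPM (1.57 to 333.7). The 6 myeloid markers went from 11.5 TPM (3.53 to 18.5) to 30.8 TPM (8.80 to 59.1), most of it Cd68, and the 6 B and plasma cell markers from 33.8 TPM (10.99 to 114.4) to 13.8 TPM (6.67 to 97.7). For all 3 lists the ranges of both groups overlapped. Their part in the members' values was not tested.

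Whether the response to aCD3 differed with the flora was asked with the interaction, the change in GF minus the change in SPF. Bcl2 (1.40, SE 0.39, limma adjusted p = 0.0478) and Pmaip1 (1.06, SE 0.30, limma adjusted p = 0.0480) were called, both less lowered in GF, so 2 of 10 beside 3.48% of all genes (2.44% higher and 1.04% lower). These calls too were marginal. With 1 library left out in turn, Bcl2 lost its call in 22 of the 28 cases and Pmaip1 in 23, while Bak1 gained one, lower in GF, in 6. Without F1, M3 and M4 the differences were 0.61 for Bcl2 and 0.47 for Pmaip1. After median-of-ratios scaling they were 1.17 (adjusted p = 0.0276) and 0.82 (adjusted p = 0.0405). Bak1 had an interaction of -0.46 (SE 0.14, limma adjusted p = 0.0581), called after median-of-ratios scaling at -0.70 (adjusted p = 0.0241), and was at -0.33 as deposited without F1, M3 and M4.

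At baseline, GF isotype against SPF isotype, Bax and Bak1 were higher in GF. Bax ran from 18.3 to 26.7 TPM (median 23.6) in GF isotype against 15.8 to 20.2 TPM (median 18.5), a difference of 0.29 (SE 0.08, limma adjusted p = 0.0343). Bak1 ran from 24.9 to 39.9 TPM (median 32.8) against 20.6 to 32.1 TPM (median 23.7), a difference of 0.41 (SE 0.09, limma adjusted p = 0.0116). The groups overlapped for both genes. Thus 2 of 10 were called beside 7.17% of all genes (6.42% higher and 0.755% lower). Under median-of-ratios scaling neither was called (0.13 and 0.25) and Pmaip1 was instead (-0.64, adjusted p = 0.0473), and under voom no member was. Bcl2 was at 119.8 ± 41.3 TPM in GF isotype (n = 10) and 98.1 ± 30.7 TPM in SPF isotype (n = 6), a log2 difference of 0.27 (SE 0.26, limma adjusted p = 0.535). SPF and GF libraries carry separate runs of sample numbers in the column headers, so the flora cannot be told apart from the run. Marker sums also differed at baseline: from SPF to GF isotype libraries the median of the B and plasma cell list went from 179.7 to 33.8 TPM, and that of the stromal list from 18.0 to 1.23 TPM. Their part in the members' differences was not tested. Leaving out any one of 9 libraries ended the Bax call (SPF isotype F1, F2, F3 or M3, or GF isotype F2, F3, F4, M2 or M3).

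After aCD3, GF libraries held more Bcl2 than SPF libraries. Bcl2 (1.66, SE 0.29, limma adjusted p = 0.000348), Bcl2l1 (0.68), Mcl1 (0.37), Bax (0.28) and Pmaip1 (0.59) were called, all higher in GF. Without F1, M3 and M4 the log2 differences were 0.87 for Bcl2, 0.53 for Bcl2l1, 0.08 for Mcl1, 0.17 for Bax, -0.01 for Pmaip1 and 0.07 for Bak1. The 5 calls are 5 of 10 beside 53.3% of all genes (48.9% higher and 4.46% lower). Every GF aCD3 library held more Bcl2 (23.5 TPM or above) than every SPF aCD3 library (20.7 TPM or below). Bcl2l1 ran from 8.47 to 17.0 TPM in GF aCD3 and from 5.46 to 9.33 TPM in SPF aCD3. After median-of-ratios scaling the 2 groups overlapped for Bcl2 (26.41 TPM in the lowest GF library, 27.02 TPM in the highest SPF library). Bcl2 stayed called under that scaling (1.27), while Bcl2l1 (0.32, adjusted p = 0.0584) and Pmaip1 (0.19, adjusted p = 0.467) lost the call and Mcl1 and Bax turned to -0.04 and -0.11. Bak1, not called as deposited (-0.06), was called lower in GF after scaling (-0.45, adjusted p = 0.0173) and under voom (adjusted p = 0.0266). Ordered by mean, Bcl2 was lowest in SPF aCD3, then GF aCD3, SPF isotype and GF isotype, and the SPF isotype and GF isotype levels did not differ beyond their spread; GF aCD3 against SPF isotype was not tested. Marker sums of other cells also differed between the aCD3 groups. The median myeloid sum was 77.4 TPM (57.5 to 106.1) in SPF aCD3 and 30.8 TPM (8.80 to 59.1) in GF aCD3. The median pancreatic acinar sum was 2.39 TPM (1.50 to 10.8) in SPF aCD3 and 20.4 TPM (1.57 to 333.7) in GF aCD3. What these cells add to the differences was not tested. The comparisons share groups, so their values are given side by side and not as separate evidence.

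**Figure D3:**
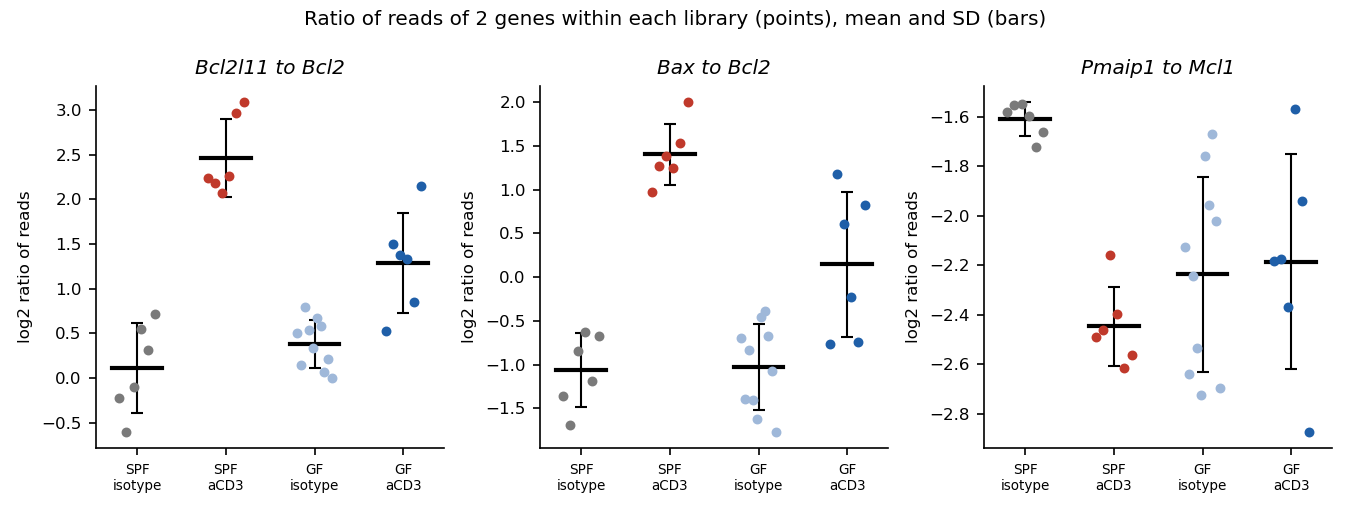
Log2 ratio of reads of 2 genes within each library, as points by group with mean and SD, for Bcl2l11 to Bcl2, Bax to Bcl2 and Pmaip1 to Mcl1. Each SPF aCD3 library lay above each SPF isotype library for the first 2 ratios (at least 2.07 against at most 0.72 for Bcl2l11 to Bcl2) and below it for the third.

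A ratio of 2 genes inside a library does not depend on how the library is scaled. Bcl2l11 to Bcl2, Bax to Bcl2 and Pmaip1 to Mcl1 were therefore tested that way, by a two-sided exact permutation test adjusted over 12 tests. They are single pairs and not the whole balance of pro-death to guardian transcripts. Reads of Bcl2l11 per read of Bcl2 were 5.12-fold higher after aCD3 in SPF (log2 0.11 ± 0.50 to 2.46 ± 0.44, SD, n = 6 each; exact p = 0.00216, the smallest that 6 against 6 allows, adjusted p = 0.00519). In GF they were 1.87-fold higher (log2 0.38 ± 0.27, n = 10, to 1.29 ± 0.56, n = 6; exact p = 0.0015, adjusted p = 0.00519). The GF aCD3 libraries with isotype-like Lag3 stood at 0.53 (F1), 1.33 (M3) and 0.86 (M4), and the others at 1.50 (M1), 1.37 (M2) and 2.14 (M5). All but F1 lay above the highest GF isotype library at 0.79. Within the 2 runs of GF numbers the difference was 0.94 and 0.90, and without F1, M3 and M4 it was 1.29 (2.44-fold).

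Bax per Bcl2 shares Bcl2 with the ratio above, so the 2 are not separate evidence. Bax per Bcl2 was 5.52-fold higher after aCD3 in SPF (exact p = 0.00216, adjusted p = 0.00519) and 2.26-fold higher in GF (exact p = 0.00574, adjusted p = 0.00862). In GF, F1 (-0.76) and M4 (-0.74) lay within the isotype range, which reached -0.39, and M3 (-0.23) just above it, while M1, M2 and M5 lay between 0.61 and 1.17, and without F1, M3 and M4 the difference from isotype was 3.72-fold. Between the aCD3 groups, Bcl2l11 per Bcl2 was 2.26-fold and Bax per Bcl2 2.39-fold lower in GF than in SPF (exact p = 0.00433, adjusted p = 0.00742 for each). Without F1, M3 and M4 they were 1.73-fold and 1.45-fold lower. At baseline the 2 ratios gave an exact p of 0.177 and 0.890. Of the 3 genes in these ratios, Bcl2 alone was called in SPF on TPM as deposited.

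Pmaip1 per Mcl1 went the other way in SPF, 1.79-fold lower after aCD3 (log2 -1.61 ± 0.07 to -2.45 ± 0.16, SD, n = 6 each; exact p = 0.00216, adjusted p = 0.00519). The 6 SPF isotype libraries were tightly grouped, from -1.72 to -1.55, above all 6 SPF aCD3 libraries. In GF the ratio did not pass the test (log2 difference 0.05, exact p = 0.806), and the difference was -0.24 without F1, M3 and M4. Between the aCD3 groups it did not pass either (0.26 higher in GF, exact p = 0.197), with a difference of -0.03 without those libraries. GF isotype was 1.54-fold lower than SPF isotype at baseline (exact p = 0.0005, adjusted p = 0.00519). These tests carry no sex term. With libraries permuted within sex and the difference adjusted for sex, the same 8 of the 12 ratio tests passed, with adjusted p from 0.00857 to 0.0248, and the GF aCD3 to GF isotype differences were 0.87 for Bcl2l11 per Bcl2 and 1.01 for Bax per Bcl2.

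Other genes of the cell death pathways were read from 6 lists, in SPF aCD3 against SPF isotype, beside the same background of 14.2% higher and 50.7% lower and a median of -0.35 over all tested genes. Of other anti-apoptotic relatives, 0 of 5 tested were higher and 1 lower (median -0.27), namely Bcl2a1b (-0.78), one of several near-identical A1 copies whose reads are uncertain. After scaling 1 was higher and 1 lower (median 0.07). Of other effector and BH3-only genes, 0 of 5 were higher and 3 lower (median -0.41), led by Bik (-0.84) and the mitophagy receptor gene Bnip3l (-0.74), and after scaling 1 was higher and 2 lower (median -0.23). In the death receptor arm 0 of 9 were higher and 6 lower (median -0.33). Its lowest were Tnfrsf10b, a TRAIL receptor (-1.78), and Fasl, the ligand of FAS, which fell from 135.1 ± 21.1 to 46.3 ± 8.05 TPM (-1.53, limma adjusted p = 0.000112). After median-of-ratios scaling, 3 of the 9 were higher and 3 lower (median 0.06), and Fasl fell by 1.12.

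Among 4 inhibitor of apoptosis genes, 1 was higher and 2 lower (median -0.58). The 1 was Birc5, survivin, which also serves chromosome segregation in dividing cells, from 9.40 ± 5.06 to 84.4 ± 5.68 TPM (3.18, limma adjusted p = 1.25e-05). Birc3 (-1.31) and Birc2 (-1.13), which restrain TNF receptor killing, fell. After scaling 2 of the 4 were higher and 2 lower (median -0.18).

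Of p53 and its other targets 0 of 10 were higher and 7 lower (median -0.44), led by Trp53inp1 (-1.09) and Mdm4 (-1.03), and 1 was higher and 3 lower after scaling (median -0.05). In the Foxo and survival cytokine receptor axis 1 of 8 was higher and 5 lower (median -0.39). Il7r, the receptor whose signal maintains Bcl2 in resting T cells, fell from 377.9 ± 76.5 to 33.7 ± 8.43 TPM (-3.46, limma adjusted p = 3.13e-05). Foxo3, a transcription factor known to drive Bcl2l11 and Bbc3, fell by 1.53, and Il2ra, the high-affinity IL-2 receptor chain, rose by 1.07. After scaling 1 of the 8 was higher and 2 lower (median 0.02).

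**Figure D4:**
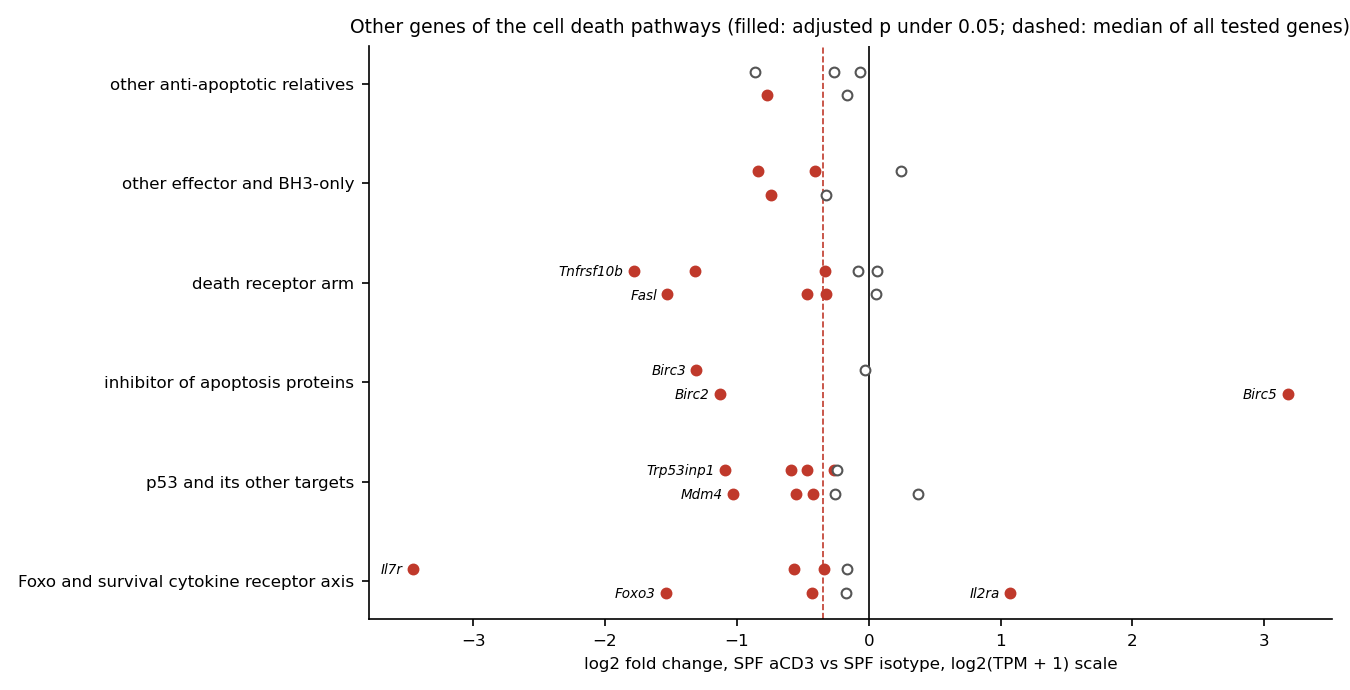
Log2 fold change between SPF aCD3 and SPF isotype of each tested gene in 6 lists of cell death genes, filled where the limma adjusted p is under 0.05; the dashed line is the median of all tested genes, -0.35. Birc5 (3.18) lay farthest to the right and Il7r (-3.46) farthest to the left.

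In GF 5 of the 41 tested genes of these 6 lists (12.2%) were called beside 7.08% of all genes, 1 higher and 4 lower, and 2 higher and 4 lower after scaling. Tnfrsf10b (-0.81, limma adjusted p = 0.0481), Bnip3l (-0.45, limma adjusted p = 0.0484), Birc2 (-0.53, limma adjusted p = 0.0496), Birc5 (1.48, limma adjusted p = 0.0499) and Il7r (-1.77, limma adjusted p = 0.0499) were called. All were close to the threshold, as was every gene called in this comparison, where the smallest limma adjusted p was 0.0481. Without F1, M3 and M4 their log2 differences were -1.54 for Tnfrsf10b, -0.86 for Bnip3l, -1.07 for Birc2, 2.96 for Birc5 and -3.67 for Il7r. After scaling Bnip3l lost its call, and Birc3 (-0.36, adjusted p = 0.0465) and Bcl2a1d, an A1 copy (0.28, adjusted p = 0.0399), gained one. In the interaction, none of the 6 lists held a limma call on TPM as deposited (16 of 41 genes had an unadjusted p under 0.05), and 2 genes were called higher (Tnfrsf10b and Birc3) and 2 lower (Ripk1 and Xiap) after scaling. Between the isotype groups 5 of these 41 genes (12.2%) were called beside 7.17% of all genes, all 5 higher in GF, from Il2rb (0.59, limma adjusted p = 0.00481) and Bcl2a1d (0.57) to Ripk1 (0.24). After scaling Il2rb (0.43) and Bcl2a1d (0.41) stayed called, Ripk1, Tnfsf10 and Xiap lost the call (adjusted p between 0.366 and 0.565), and Stat5b was called lower (-0.23, adjusted p = 0.0219).

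For each member, the 2 tested genes of most similar profile were found by Pearson's r of log2(TPM + 1) over the 28 libraries, which fall into the 4 groups and share their depth and composition. Bcl2 was most like Klhl9 (r = 0.970) and Ehd3 (0.968), Mcl1 like Abcf3 (0.960) and Sirt1 (0.959), and Bcl2l1 like Fbxw11 (0.927) and Ascc3 (0.925). Pmaip1 was most like Trib1 (0.938) and Hlf (0.931), Bid like Icam1 (0.914) and Mylip (0.907), Bcl2l11 like Art2a (0.872) and Jakmip1 (0.869), and Bbc3 like Resf1 (0.871) and Gab3 (0.855). The nearest gene to Bak1 was Ggnbp1 (0.999), with which it shares reads, and then Pfn1 (0.899). Bax was nearest to Rac2 (0.848) and Atp6v0c (0.838). Fas had the least similar neighbours, Tnfsf8 (0.834) and Dusp14 (0.793).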

How the data were processed

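RNA of 28 libraries in 4 groups was analysed from the deposited table. The deposited values are TPM, which the authors obtained from HOMER (analyzeRepeats.pl, RefSeq transcripts of mm10, 1 row kept per gene), per the file headers. In 99.24% of rows the length equals the genomic span, introns included. The aligner version and strand use are not given in the sources used here. The labels name a total RNA kit and also polyA RNA, which was not settled. The table's 26 TPM columns that match no sample were not used.

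Whole reads were recovered: TPM times length was a whole multiple of 1 step per library in 100.0% of 1500 low values each, within 0.1 reads. Such depth covers counting error only: 3 reads of Bcl2 were worth 0.579 to 1.52 TPM. No 2 libraries were identical. As nothing says each came from a separate mouse, p-values measure the spread between samples, which may be technical.

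Genes with at least 1 TPM in at least 6 libraries were tested with limma 3.58.1 (R 4.3.3) on log2(TPM + 1), a scale that understates changes of low genes, with a mean per group, a sex term and an empirical Bayes trend, adjusted by Benjamini-Hochberg over all tested genes at 0.05; the code was tested on simulated data. Ratios used recovered reads plus 0.5 and SciPy 1.17.1. Alternatives were other pseudocounts and filters, median-of-ratios scaling, TPM without Rn45s and histone genes, limma's voom on recovered reads, a replicate block, the run of numbers as a term, and leaving out libraries. Members and lists were chosen with earlier results of these data known. All members are named; of each list, up to 2 called genes each way per comparison. A further planned list is not reported here. The 2 most similar genes leave out unnamed models and small RNAs. RefSeq promoter windows matched 9 of 10 members.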

Additional observations from a re-analysis of the deposited data

Results flagged for a closer look

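Of 52 sets of values examined (a gene or ratio in 1 group), 3 held a library whose gap to its nearest neighbour was large for the range of its group, and chance gives about 2.6. Bbc3 was at 6.689 TPM in SPF isotype M3, above 4.46 to 5.27 TPM in the other 5 libraries. Bbc3 was also at 4.128 TPM in GF aCD3 M3, above 0.458 to 1.74 TPM in the other 5. Pmaip1 was at 121.181 TPM in SPF isotype F2, above 88.8 to 99.0 TPM in the other 5. The response to aCD3 differed between GF and SPF by the interaction test for Bcl2 (1.3965 on the log2 scale, SE 0.39, limma adjusted p = 0.0478) and for Pmaip1 (1.0644, SE 0.30, limma adjusted p = 0.0480), with both genes less lowered in GF. These calls were marginal: with 1 library left out in turn Bcl2 lost its call in 22 of 28 cases and Pmaip1 in 23, and without GF aCD3 F1, M3 and M4 the values were 0.61 and 0.47.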

How the results depend on the processing

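In SPF the count of called members was 7 with each of the 28 libraries left out in turn, and between 5 and 7 under the other settings run. In GF aCD3 against GF isotype the 2 calls became 0 with a pseudocount of 0.1, 0 with no low-value filter and 7 without F1, M3 and M4 (beside 59.6% of all genes), and from 0 to 4 with 1 library left out. With the run of numbers as a term there were 3 calls, all lower, and Bcl2 was at -1.0573 (limma adjusted p = 0.0170). The interaction kept 2 calls with that term. The 2 interaction calls became 3 (2 higher, 1 lower) under median of ratios, under voom and without Rn45s and histone genes, 0 with a pseudocount of 5, 0 with no filter, 0 without F1, M3 and M4 (0.0493% of all genes), and from 0 to 3 with 1 library left out. The 2 calls between isotype groups became 1 under median-of-ratios scaling, 0 under voom, 3 without Rn45s and histone genes (Bcl2l11 gained a call, 0.5773, adjusted p = 0.0331), and from 1 to 2 with 1 library left out. The 5 calls between aCD3 groups became 2 under median-of-ratios scaling, 3 without Rn45s and histone genes, 3 under voom, 0 without F1, M3 and M4 (3.52% of all genes), and from 3 (without SPF aCD3 M2 or GF aCD3 F1) to 6 with 1 library left out. In that comparison Mcl1 turned to -0.0369 and Bax to -0.1087 under median of ratios, Bax to -0.0386 under voom, and Pmaip1 to -0.0076 without F1, M3 and M4. As F1, M3 and M4 were picked by a measured response, the counts without them are no test. Apart from fewer libraries or another scale, the cause of these shifts was not tested. Over all genes, median-of-ratios scaling gave 685 higher and 490 lower in GF (300 and 562 as deposited), 646 and 735 for the interaction (297 and 127), 63 and 141 between isotype groups (782 and 92), and 1956 and 2032 between aCD3 groups (5953 and 543). Over 1850 single-gene values under the alternatives, 1669 kept their side of the threshold with no called direction turned (64 of them changed sign with a call under neither setting), 148 lost a call, 29 gained one and 4 turned.

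Replicate names are shared between groups, but same-named libraries did not clearly deviate together (r from -0.0309 to 0.103 in SPF and from -0.208 to 0.198 in GF, where 2 of 6 SPF and 1 of 6 GF names were closest to their own). No label says that the names pair samples. A weak pairing could give the same values, so they cannot decide whether samples were paired. With the replicate block in place of sex, the calls were 7 in SPF, 0 in GF, 1 for the interaction, 2 between isotype groups and 5 between aCD3 groups. Paired by name, the ratio differences were 2.3561, 0.9491 and -1.4519 for Bcl2l11 to Bcl2 (SPF, GF, and GF against SPF after aCD3), 2.4636, 0.9874 and -1.2399 for Bax to Bcl2, and -0.8364 (SPF) and -0.4552 (isotype groups) for Pmaip1 to Mcl1. An exact sign-flip test gave adjusted p between 0.0625 and 0.15, with 0.03125 the smallest raw p for 6 pairs and 0.125 for 4. Permuting libraries within sex and the ratios without F1, M3 and M4 were chosen after seeing the data. With 1 library left out, Pmaip1 to Mcl1 between aCD3 groups ran from 0.1386 to 0.3991, the latter called without GF aCD3 M5 (exact permutation adjusted p = 0.0231). Depth limits Bbc3 (6 to 108 reads a library) and Bid (25 to 170) most, and Bcl2 in SPF aCD3 rested on 45 to 93 reads.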
